A study of Mus musculus with 6 samples.

Results

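EpiLCs + PRDM14, epiblast-like cells in which the study was to switch on a *Prdm14* transgene, were compared with EpiLCs (d4), the culture that went on for the same time without it. The comparison has 1 array on each side, out of 6 arrays in the series. Each array gives log2 signals from robust multi-array average (RMA), and of 45141 probe sets the 28898 with 1 gene symbol were used, which stand for 17097 genes. Where a gene has several probe sets, the brightest one on average over the 6 arrays stands for it. Every value is either a level, a log2 signal on 1 array, or a difference, the level in EpiLCs + PRDM14 minus that in EpiLCs (d4). With no replicate on either side there is no test and no error, so genes past 1.5-fold, a log2 difference of 0.58, are called higher or lower as a description of these 2 arrays.

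Both cultures come from E14tg2a, a mouse embryonic stem cell (ESC) line with a piggyBac, doxycycline-inducible FLAG-*Prdm14*-IRES-Neo cassette, and both carry a scramble shRNA, the control of a *Tet1*/*Tet2* knockdown. They were made from ESCs with activin A and bFGF on fibronectin, and on day 2 the cells were replated in GK15 medium with or without doxycycline. The label EpiLCs + PRDM14 states no day of its own, and the culture without PRDM14 is labelled day 4. Doxycycline and the transgene cannot be told apart, because no array here has doxycycline without the cassette. By the study's methods the inducible ESCs came from picked colonies, and no picking is stated after the shRNA was added by lentivirus. ESCs, EpiLCs (d2) from the day of replating and a pair labelled *Tet1*/*Tet2* KD, EpiLCs + PRDM14 and EpiLCs (d2), give 1 further array each and are set beside the comparison where they bear on a gene. Levels at day 2 and at day 4 are those of EpiLCs (d2) and EpiLCs (d4).

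PRDM14 is a PR domain protein of the inner cell mass, ESCs and primordial germ cells that recruits Polycomb complexes and restrains FGF signalling and the de novo DNA methyltransferases. ESCs stand for the naive state of pluripotency, held by factors such as NANOG, KLF4, ESRRB and TFCP2L1. EpiLCs stand for the pre-gastrulating epiblast, in which these factors decline and OCT6, DNMT3B and FGF5 appear, and from which primordial germ cells can be induced.

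The only probe set of *Prdm14* was not raised on the array labelled + PRDM14. Its level was 4.95 in EpiLCs + PRDM14, 5.18 in EpiLCs (d4), 5.04 in EpiLCs (d2) and 6.96 in ESCs, so ESCs stood above all EpiLC arrays. Whether the transcript of the cassette holds the sequence of this probe set is not known here, and the name + PRDM14 is that of the label throughout. Apart from these arrays, the study measured *Prdm14* by qRT-PCR in such cultures. It also examined PRDM14 levels of the picked colonies with and without doxycycline. *Tet2*, which encodes an enzyme that oxidizes 5-methylcytosine, had levels of 8.51 in EpiLCs + PRDM14 and 8.35 in EpiLCs (d4). *Tet1* was not analysed here.

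Of the 5 measured markers of undifferentiated pluripotent cells, *Sox2* was higher with PRDM14 by 0.70 and *Lin28a* was lower, at -1.03, while markers of the naive state differed more often. *Pou5f1*, which encodes OCT3/4, had a level of 11.11 in EpiLCs + PRDM14 and 10.77 in EpiLCs (d4), and *Sall4* had levels of 10.59 and 10.38. Of the 8 markers of naive ESCs, 7 were higher with PRDM14, and of the 7 markers of epiblast-like cells, 3 were lower. The levels of the 8 naive markers summed to 71.0 with PRDM14 and 59.8 at day 4, and those of the 7 epiblast-like markers to 45.19 and 52.98. No marker of fibroblasts (7 measured), extraembryonic endoderm (6) or mesoderm (4) passed 1.5-fold. The highest level among the fibroblast markers was 6.23 at day 4 and 5.81 with PRDM14, and among the endoderm markers it was 6.18 and 6.11. In these bulk samples, fewer cells that express a gene and less of its RNA per cell cannot be told apart.

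Most genes read alike on both arrays. With PRDM14, 321 genes were higher, which is 1.88% of the 17097, and 367 were lower, which is 2.15%, together 688 or 4.02%, while 16409 stayed within 1.5-fold. At 2-fold, 89 genes (0.521%) were higher and 122 (0.714%) lower. The quartiles of all differences were -0.09 and 0.10 and the median 0.01, and the levels of the arrays correlated over genes with r = 0.990, where genes are not independent replicates. The spread of the differences depended on the level. With genes in 5 equal groups by level, the standard deviation was 0.12 in the dimmest, where 3 genes were higher and 8 lower, and 0.36 in the fourth, where 130 were higher and 139 lower. Of the 135 higher genes with several probe sets, 110 (81.5%) had the same sign in all of them and 23 (17.0%) passed 1.5-fold in all. Among the lower genes, 201 had several probe sets, of which 140 (69.7%) had 1 sign and 42 (20.9%) passed throughout, and no called gene of either direction had a probe set past the threshold the other way.

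**Figure D1:**
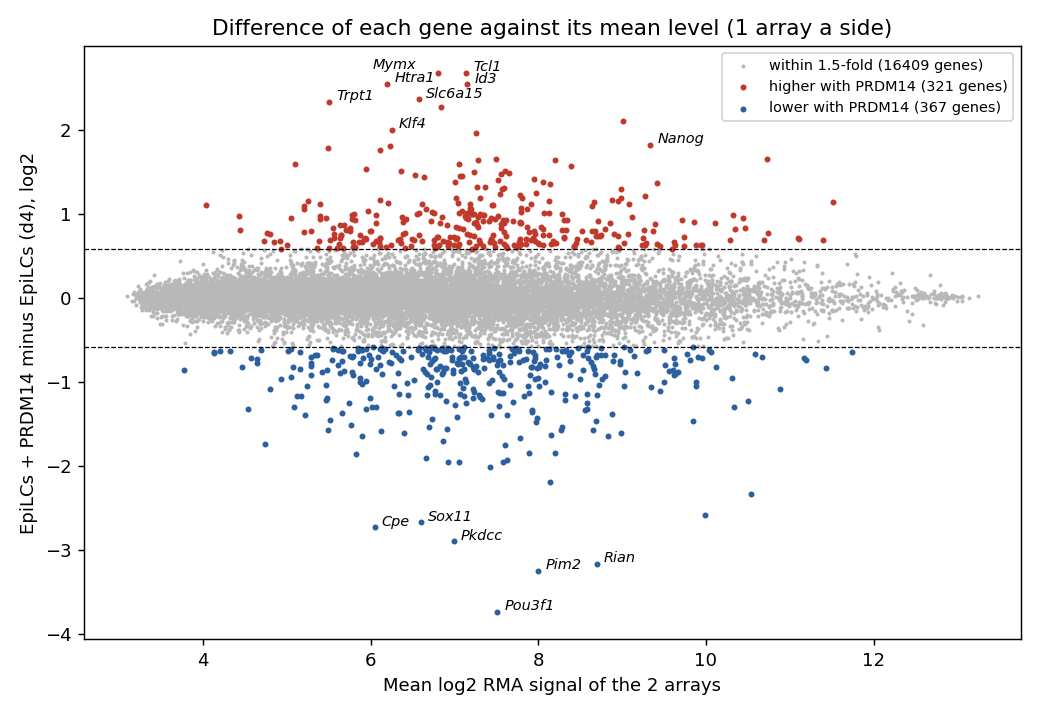
Each point is a gene, with the mean log2 RMA signal of EpiLCs + PRDM14 and EpiLCs (d4) on the x axis and the log2 difference between them on the y axis; dashed lines mark 1.5-fold. The 321 higher (red) and 367 lower (blue) genes sit at middle and high levels, and the largest decrease (*Pou3f1*, -3.74) exceeds the largest increase (*Mymx*, 2.68).

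The genes with the largest increases had mostly stood high in ESCs and low in EpiLCs (d4). *Tcl1*, which encodes a coactivator of AKT found in ESCs, had levels of 8.30 in ESCs, 5.88 at day 2, 5.80 at day 4 and 8.48 with PRDM14, a difference of 2.68 (6.39-fold). *Id3*, a target of BMP signalling, had levels of 8.27, 5.45, 5.88 and 8.42 in the same order, a difference of 2.54 (5.81-fold). *Htra1*, which encodes a secreted serine protease, had levels of 7.21, 5.18, 4.93 and 7.47, a difference of 2.55 (5.84-fold). In each of these genes the level with PRDM14 lay slightly above that of ESCs, and both EpiLC arrays without PRDM14 lay low. The adhesion gene *Jam2* had a level of 7.97 with PRDM14, against 8.74 in ESCs and 5.70 in EpiLCs (d4).

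Some of the 15 largest increases had another course. *Mymx*, known as the gene of a micropeptide that fuses myoblasts, had levels of 9.49 in ESCs, 7.66 at day 2, 5.47 at day 4 and 8.14 with PRDM14. The difference of 2.68 was the largest of all genes, but the level with PRDM14 exceeded that of EpiLCs (d2) by only 0.48. *Slc6a15*, a neutral amino acid transporter gene, had levels of 5.23 in ESCs, 4.76 at day 2, 5.39 at day 4 and 7.75 with PRDM14, the only array on which it stood high. *Trpt1*, a tRNA phosphotransferase gene, stood lowest in EpiLCs (d4), with a level of 4.34 against 5.66 in EpiLCs (d2), 6.25 in ESCs and 6.67 with PRDM14. The rest of the 15 were *Aard* (difference 2.11), *Klf4* (2.00), *Nr0b1* (1.96), *Nanog* (1.82), the unconventional myosin gene *Myo1f* (1.80), the dipeptidyl peptidase gene *Dpp4* (1.78), *Tppp3* (1.76) and *Mreg* (1.65).

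The largest decrease was that of *Pou3f1*, which encodes OCT6, the POU factor of the epiblast. Its levels were 4.91 in ESCs, 9.01 at day 2, 9.38 at day 4 and 5.64 with PRDM14, a difference of -3.74 (13.4-fold). *Pim2*, which encodes a serine/threonine kinase, had levels of 6.29, 8.86, 9.62 and 6.38, a difference of -3.24 (9.48-fold). *Pkdcc*, which encodes a secreted tyrosine kinase, had levels of 4.77, 8.04, 8.44 and 5.55, a difference of -2.90. The level with PRDM14 lay above that of ESCs by 0.74 for *Pou3f1*, 0.09 for *Pim2* and 0.77 for *Pkdcc*. *Cpe*, the carboxypeptidase E gene, had the same level of 4.68 in ESCs and with PRDM14, against 7.41 in EpiLCs (d4).

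In other genes with large decreases, the level with PRDM14 was below that of every other scramble or ESC array. *Rian*, a maternally expressed noncoding RNA, had levels of 8.41 in ESCs, 8.69 at day 2, 10.28 at day 4 and 7.11 with PRDM14, a difference of -3.17. *Gja1*, the gap junction gene of connexin 43, had levels of 9.77, 11.04, 11.28 and 8.69, a difference of -2.59. *Fam111a*, a protease gene, was level in the other arrays at 8.11, 8.12 and 8.03 and was 6.08 with PRDM14. *Cdc42ep3*, an effector gene of CDC42, had levels of 7.47, 7.42, 7.90 and 5.94. The adaptor gene *Bcar3* (difference -1.95), *Sox4* (-2.19) and *Dnmt3b* (-2.33) also had their lowest level of these 4 arrays with PRDM14. The other probe set of *Bcar3* differed by 0.03, and the others of *Sox4* ran from -0.80 to 0.06. *Greb1l* (-1.90) stood apart the other way, with levels of 5.72 in ESCs, 5.90 at day 2, 7.61 at day 4 and 5.71 with PRDM14. EpiLCs (d4) was thus the highest of these 4 arrays, and the other probe set of *Greb1l* differed by -0.02. In the pair labelled *Tet1*/*Tet2* KD, *Greb1l* was higher with PRDM14 than at day 2, by 0.84. *Sox11* (-2.67), *Prom1* (-2.01) and *Acsl5* (-1.93) complete the 15. The 6 probe sets of *Sox11* ran from -2.67 to -0.08. Its difference was -0.36 when probe sets whose names end in x_at, s_at or a_at were left out. Another of its probe sets that remained then had -1.37.

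**Figure D2:**
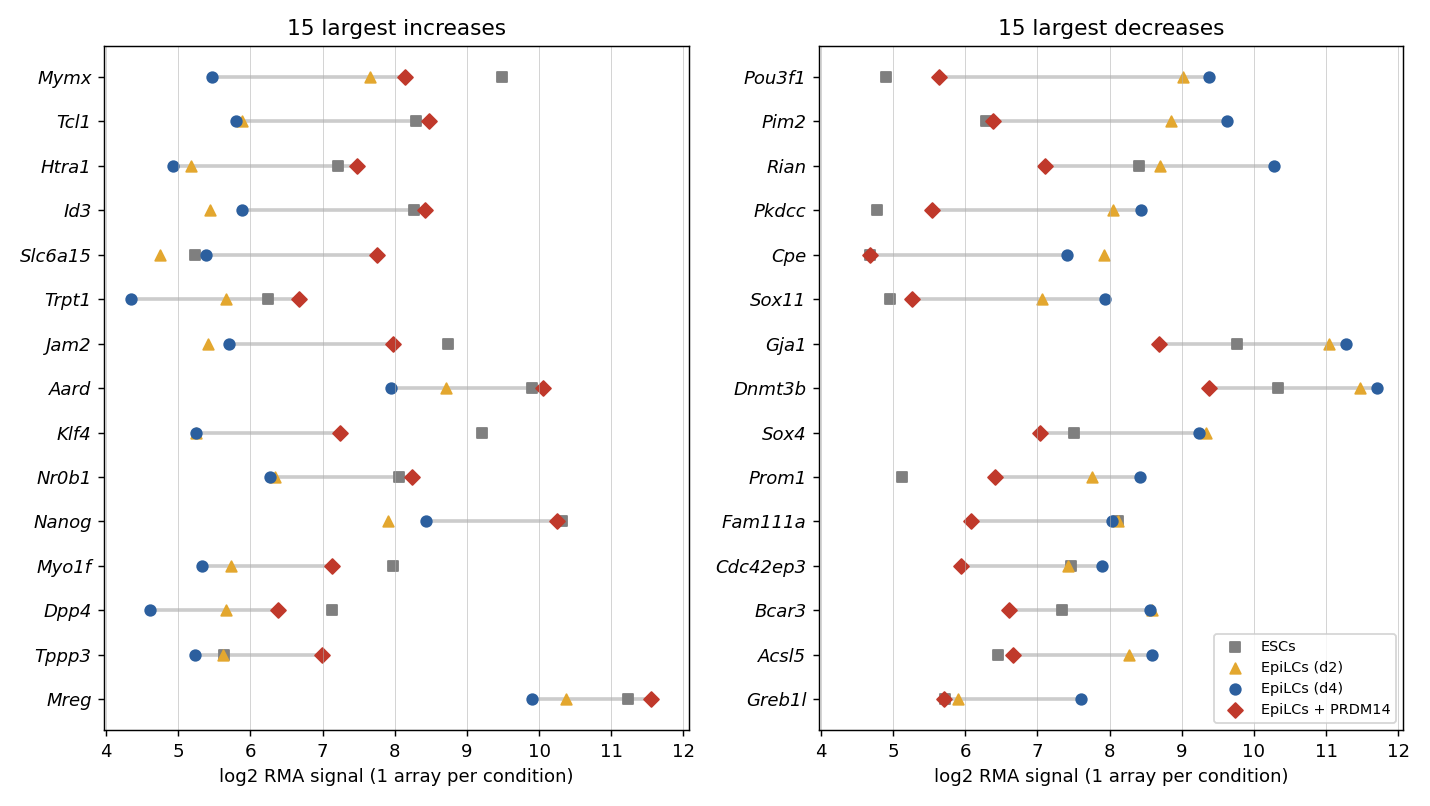
Log2 RMA signals of the 15 genes with the largest increase (left) and decrease (right) on 4 arrays, 1 per condition; the grey bar joins EpiLCs (d4) to EpiLCs + PRDM14. *Tcl1*, *Htra1*, *Id3* and *Nanog* lie at the ESC level with PRDM14 and *Slc6a15* lies above all arrays, while *Pim2* and *Cpe* drop to the ESC level and *Rian*, *Gja1* and *Fam111a* drop below it.

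Promoter sequences were set beside these genes because the study concerns DNA methylation, which acts at CG dinucleotides. The windows, taken from RefSeq on GRCm38.p6, run from 250 bases before to 50 after the transcription start, and were found for 244 of the higher and 285 of the lower genes. Windows of genes with large differences held from 0 to 42 CG dinucleotides. They are shown with CG in capitals, except *Pim2*, which has 31 CG dinucleotides and is shown for the octamer ATTTGCAT, the motif of OCT factors, with its copies on either strand in capitals.
Tcl1 (higher; chr12:105222688-105222987, minus strand; 11 CG): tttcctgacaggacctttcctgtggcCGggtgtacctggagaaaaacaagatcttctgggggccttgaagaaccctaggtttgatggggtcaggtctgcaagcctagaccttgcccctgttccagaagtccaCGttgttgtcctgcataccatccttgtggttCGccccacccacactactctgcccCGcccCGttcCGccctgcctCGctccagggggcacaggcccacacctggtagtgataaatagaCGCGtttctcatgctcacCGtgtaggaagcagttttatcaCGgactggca
Id3 (higher; chr4:136143572-136143871, plus strand; 19 CG): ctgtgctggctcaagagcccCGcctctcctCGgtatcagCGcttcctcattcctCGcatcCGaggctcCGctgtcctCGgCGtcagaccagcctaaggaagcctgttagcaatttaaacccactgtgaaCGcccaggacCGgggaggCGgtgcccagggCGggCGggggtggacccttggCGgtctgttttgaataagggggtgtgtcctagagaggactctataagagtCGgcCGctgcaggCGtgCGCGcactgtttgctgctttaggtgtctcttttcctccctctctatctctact
Pim2 (lower; chrX:7878056-7878355, plus strand; 2 octamers): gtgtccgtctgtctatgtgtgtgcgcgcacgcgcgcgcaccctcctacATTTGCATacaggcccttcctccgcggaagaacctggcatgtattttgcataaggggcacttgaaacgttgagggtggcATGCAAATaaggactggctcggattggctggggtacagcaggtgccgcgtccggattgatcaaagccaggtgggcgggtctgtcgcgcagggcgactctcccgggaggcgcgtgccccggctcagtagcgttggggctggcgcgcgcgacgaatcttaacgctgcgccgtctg
Rian (lower; chr12:109603695-109603994, plus strand; 0 CG): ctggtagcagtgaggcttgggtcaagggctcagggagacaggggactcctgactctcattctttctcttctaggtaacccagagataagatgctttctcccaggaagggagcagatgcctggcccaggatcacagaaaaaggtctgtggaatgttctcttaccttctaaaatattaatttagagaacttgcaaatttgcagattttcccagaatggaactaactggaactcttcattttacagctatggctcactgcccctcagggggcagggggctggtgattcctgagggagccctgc
The windows of *Htra1* and *Pkdcc* hold 28 and 42 CG dinucleotides. As groups, higher and lower genes had the same median of 18 CG per window, where the windows of all 13605 genes found had 16. Windows with 4 or fewer CG made up 15.8% of those of higher genes, 10.9% of those of lower genes and 20.0% of all. The octamer was in 12 windows of lower genes (3.2%), 2 windows of higher genes (0.621%), those of *Zfp42* and *Zfp296*, and 241 of all 17065 windows (1.41%), of which 15 held it 2 times as *Pim2* does. The motif GGTCTCTAA, reported for PRDM14, was searched on both strands too and was in 3 windows of lower genes, of *Fam111a* and *Hmgxb4*, in none of higher genes, and in 42 of all (0.246%). Such a match is no evidence of binding.

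Genes of naive pluripotency were the list with the highest median, where all lists were chosen with earlier results of these data known. Of 29 measured members of the naive list, 15 were higher and 1 lower, with a median difference of 0.69. Over all genes, 1.88% were higher and 2.15% lower, with a median of 0.01, which is the reference for every list below. *Klf4*, which encodes a Krüppel-like factor of the naive network, had levels of 9.21 in ESCs, 5.25 in both EpiLCs (d2) and EpiLCs (d4), and 7.25 with PRDM14, a difference of 2.00. *Nanog* had levels of 10.32, 7.91, 8.43 and 10.25, a difference of 1.82. *Nr0b1*, which encodes the nuclear receptor DAX1, had levels of 8.07, 6.34, 6.28 and 8.24, a difference of 1.96. *Nanog* and *Nr0b1* thus differed from their ESC level by -0.07 and 0.17, whereas *Klf4* stayed between, and its other probe set differed by 0.66. The orphan receptor gene *Esrrb* differed by 1.64, its relative *Nr5a2* had levels of 7.99 with PRDM14 and 6.49 at day 4, and differences were smaller for the zinc finger gene *Zfp42* (1.14), *Klf2* (1.11), *Tfcp2l1* (1.01) and *Fbxo15* (0.98). *Tfcp2l1* had a level of 7.57 against 9.07 in ESCs. *Spic* (0.78), *Dppa2* (0.77), *Fgf4* (0.72) and *Dppa4* (0.69) were nearer to the threshold.

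*Gbx2*, a homeobox gene that LIF induces in ESCs, went the other way, with levels of 4.84 in ESCs, 5.47 at day 2, 6.50 at day 4 and 5.65 with PRDM14. Among the members within 1.5-fold were *Tbx3* (0.47, with 0.92 at another probe set), *Eras* (0.47), *Dppa5a* (0.27), *Stat3* (-0.11) and *Klf5* (-0.13). In the core pluripotency list, 1 of 14 genes was higher and 5 were lower, with a median of -0.12. *Sox2* was the higher one, with a level of 11.46 against 10.76. The lower ones were the let-7 inhibitor gene *Lin28a* (-1.03), the adhesion gene *Epcam* (-0.91), the forkhead gene *Foxp1* (-0.72), *Dnmt3l* (-0.67) and *Zfp281* (-0.60), a regulator of the exit from the naive state. *Pou5f1* differed by 0.34.

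Genes of the primed and formative epiblast had the lowest median of the lists, at -0.39, and 12 of 31 were lower and none higher. This list too was chosen with earlier results known, so its rank and count are a description. Beside *Pou3f1*, *Pim2*, *Pkdcc* and *Cpe*, the lower genes were *Sox11*, *Dnmt3b* and *Sox4*, then the ERK phosphatase gene *Dusp4* (-1.16), the carbonic anhydrase gene *Car4* (-1.10), the zinc finger genes *Zic2* (-0.71) and *Sall2* (-0.65), and *Fgf5* (-0.63). *Sox11*, a SOXC factor gene, had levels of 4.95 in ESCs, 7.06 at day 2, 7.93 at day 4 and 5.26 with PRDM14. *Fgf5*, the usual marker of the epiblast, had low levels of 5.38, 6.30, 5.99 and 5.36, and its other probe set had a difference of 0.20. The list did not move as a block. *Otx2*, a homeobox factor of the epiblast, had a level of 6.80 with PRDM14 and 7.13 in EpiLCs (d4), where EpiLCs (d2) had 8.23. *Tcf15* (0.56) and *Etv5* (0.52) were the members with the largest positive differences, both within 1.5-fold.

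**Figure D3:**
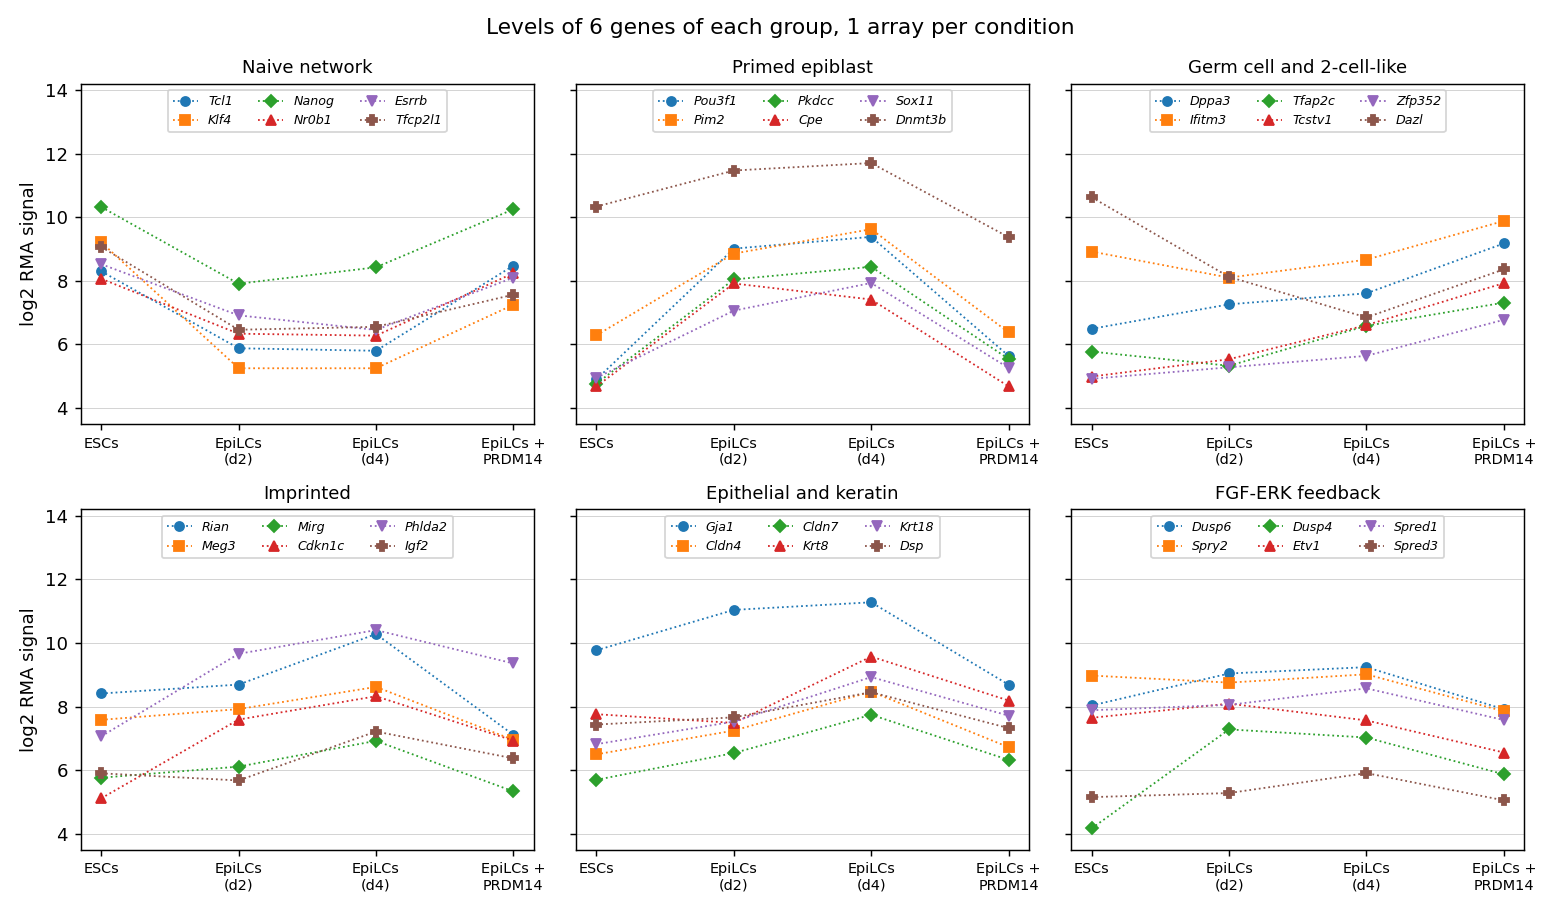
Log2 RMA signals of 6 genes from each of 6 groups on the ESC array, both EpiLC arrays without PRDM14 and that with it, 1 array per condition; dotted lines join the arrays of a gene and are no time course. Naive genes return toward ESCs with PRDM14 and primed genes fall, germ cell and 2-cell-like genes other than *Dazl* are highest with PRDM14, and keratin and imprinted genes peak in EpiLCs (d4).

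In the DNA methylation list, *Dnmt3b* and *Dnmt3l* of the de novo branch were lower, while *Dnmt3a* was within 1.5-fold at its brightest probe set. Of 16 measured genes, 3 were lower and none higher, with a median of -0.06. *Dnmt3b*, a de novo DNA methyltransferase gene, had levels of 10.34 in ESCs, 11.47 at day 2, 11.70 at day 4 and 9.37 with PRDM14, a difference of -2.33 at its brightest probe set and -2.50 at the other. *Dnmt3l*, which encodes their catalytically inactive partner, had levels of 10.13, 10.46, 10.11 and 9.44. *Zbtb33*, which encodes the methyl-CpG reader KAISO, had levels of 6.24, 6.58, 7.31 and 6.40. *Dnmt3a* had a level of 8.96 against 9.35 in EpiLCs (d4), a difference of -0.39 that was -0.63 at the probe set that differed most. The maintenance genes *Dnmt1* (0.02) and *Uhrf1* (-0.32) were within 1.5-fold.

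Of 28 genes of TET enzymes and base excision repair, 1 was higher (3.57%) and 2 were lower (7.14%), with a median of 0.04. Over all genes these shares were 1.88% and 2.15%. *Idh2*, the gene of a mitochondrial enzyme that makes the TET cofactor 2-oxoglutarate, had a level of 8.48 against 7.36 at its brightest probe set, while its other probe set differed by only 0.20. *Gadd45g* (-0.77), a stress response gene, and the deaminase family gene *Apobec2* (-0.74) were lower. *Tdg*, which encodes the glycosylase that removes oxidized methylcytosines, had levels of 9.60 and 10.07, and *Tet3* had levels of 4.83 and 4.80. Of 35 genes of H3K9 methylation and Polycomb complexes, only the H3K9 demethylase gene *Kdm3a* passed, with a level of 9.67 against 8.86. The Polycomb genes *Suz12* (0.39), *Mtf2* (0.30), *Jarid2* (0.27), *Eed* (0.17) and *Ezh2* (0.07) were within 1.5-fold.

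Germ cell genes differed in the early and the late lists. Of 21 early germ cell genes, 4 were higher and 1, *Lin28a*, lower, with a median of 0.12. *Dppa3*, which encodes the maternal factor STELLA, had levels of 6.49 in ESCs, 7.26 at day 2, 7.61 at day 4 and 9.18 with PRDM14, a difference of 1.57. *Ifitm3*, which encodes the membrane protein FRAGILIS, had levels of 8.92, 8.10, 8.67 and 9.88, a difference of 1.22. *Tfap2c*, an AP-2 factor gene needed for germ cell specification, had levels of 5.78, 5.33, 6.59 and 7.32. All 3 were highest with PRDM14, while *Kit*, the receptor tyrosine kinase gene, had a level of 7.63 against 6.70 and stood at 8.78 in ESCs. *Prdm1*, which encodes BLIMP1, had levels of 4.89 and 4.83, and *Dnd1* had levels of 6.40 and 6.28.

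Of 27 genes of meiosis and the piRNA pathway, 4 were higher (14.8%) and none lower, against 1.88% and 2.15% of all genes. The median was 0.26, and 15 of the 27 had levels below 6 on both arrays. *Dazl*, a germ cell RNA-binding protein gene, had levels of 10.63 in ESCs, 8.12 at day 2, 6.85 at day 4 and 8.36 with PRDM14, a difference of 1.51. *Hormad1*, a meiotic chromosome axis gene, had levels of 8.43, 8.04, 6.67 and 7.73. EpiLCs (d4) had the lowest level of the 4 arrays for both genes. With EpiLCs (d2) as the reference, 1 gene of the list was higher and 3 were lower, with a median of -0.01. *Tex15* (1.00) was highest with PRDM14, at 7.71, and the PIWI gene *Piwil2* (0.77) had low levels of 5.15 and 4.38.

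Of 10 measured genes of the 2-cell-like state, a rare state of ESC cultures that resembles the cleavage-stage embryo, 5 were higher and none lower, with a median of 0.54. *Tcstv1* had levels of 4.99 in ESCs, 5.54 at day 2, 6.61 at day 4 and 7.93 with PRDM14, a difference of 1.32. *Zfp352* had levels of 4.92, 5.28, 5.64 and 6.78, a difference of 1.13. Both were lowest in ESCs and highest with PRDM14. *Tcstv3* (0.83), *Ubtfl1* (0.72) and the arginase gene *Arg2* (0.67) were also higher, and *Eif1a*, *Pramel6* and *Zfp809* had differences of 0.20, -0.03 and -0.15. *Tcstv1* and *Tcstv3* lie on chromosome 13 in an unbroken row of 6 measured genes that were all higher, with *AF067063* (0.93), *D13Ertd608e* (0.99), *Gm20767* (0.82) and *AF067061* (0.68). This row was the longest of called neighbours in either direction. These genes are near-identical copies, so their probe sets may read the same transcripts and the 6 differences are not separate measurements.

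Among signalling lists, the feedback genes of the FGF-ERK pathway, which ERK activity induces, were called in the lower direction only. Of 25 such genes, 6 were lower (24%) and none higher, against 2.15% and 1.88% of all genes. The other 19 were within 1.5-fold, the list median was -0.09 and the largest positive difference 0.52. *Dusp6*, an ERK phosphatase gene, had levels of 8.04 in ESCs, 9.04 at day 2, 9.24 at day 4 and 7.92 with PRDM14, a difference of -1.32. *Spry2*, a Sprouty inhibitor gene, had levels of 8.98, 8.76, 9.02 and 7.85, a difference of -1.16. *Spry2* was therefore lower than on all other arrays, whereas *Dusp6* came to the ESC level. *Dusp4* (-1.16), the ETS factor gene *Etv1* (-1.01) and the Spred inhibitor genes *Spred1*, with levels of 7.58 against 8.57, and *Spred3* (-0.86) were the others. Of 18 genes of FGF ligands and receptors, the carrier gene *Fgfbp1* (-1.28) and *Fgf5* were lower and *Fgf4* was higher. These calls are 11.1% and 5.56% of that list, against 2.15% and 1.88% of all genes. *Fgfbp1* had levels of 6.37 in EpiLCs (d2), 8.17 in EpiLCs (d4) and 6.89 with PRDM14. The receptor genes *Fgfr1* (-0.15), *Fgfr2* (-0.32), *Fgfr3* (0.09) and *Fgfr4* (-0.32) were within 1.5-fold.

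LIF and STAT3 genes split, with 4 of 23 higher and 3 lower and a median of 0.03. *Lifr*, the LIF receptor gene, had levels of 8.95 in ESCs, 7.66 at day 2, 6.67 at day 4 and 8.32 with PRDM14, a difference of 1.65. Its other probe sets differed by 0.18 and 0.06. The coreceptor gene *Il6st* differed by 0.62. The targets *Klf4* and *Tfcp2l1* were the other higher genes, and *Pim2*, *Gbx2* and *Cebpb* (-0.73) were lower. In the BMP list, 2 of 23 genes were higher (8.70%) and none lower, against 1.88% and 2.15% of all genes. The 2 higher genes were *Id3* and the ligand gene *Bmp4*, which had a level of 6.24 against 5.57. The related *Id1* and *Id2*, also BMP targets, did not follow *Id3*, with levels of 6.70 and 6.59 against 6.89 and 7.16. *Smad6* (0.45) and *Smad7* (-0.12), feedback inhibitors, were within 1.5-fold.

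Of 21 activin and nodal genes, 4 were lower and none higher. *Lefty1*, which encodes a secreted Nodal inhibitor, had levels of 9.15 in ESCs, 11.12 at day 2, 11.43 at day 4 and 10.34 with PRDM14, a difference of -1.09. Its neighbour *Lefty2* (-0.66), the SMAD corepressor gene *Skil* (-0.85) and *Foxh1* (-0.68), the partner of SMAD2, were also lower. *Skil* had a level of 9.18 with PRDM14 against 10.03, still above the 8.04 of ESCs. In the WNT list, *Fzd7*, a Frizzled receptor gene, was the only one of 20 past 1.5-fold, which is 5% lower against 2.15% of all genes. The levels of *Fzd7* were 7.87, 9.47, 9.79 and 8.18. Its other probe set differed by 0.04.

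Lower genes outnumbered higher ones in the imprinted list. Of 32 measured, 10 were lower and 1 higher, with a median of -0.22. With EpiLCs (d2) as the reference, 5 were lower and 4 higher, with a median of 0.03. *Rian*, *Meg3* and *Mirg* are maternally expressed noncoding RNAs that lie side by side on chromosome 12. *Meg3* had levels of 7.58 in ESCs, 7.92 at day 2, 8.62 at day 4 and 6.95 with PRDM14, a difference of -1.67. *Mirg* had levels of 5.77, 6.11, 6.92 and 5.34, a difference of -1.59. All 3 were highest in EpiLCs (d4) and lowest with PRDM14, though not at every probe set, since the 10 probe sets of *Meg3* ran from -3.46 to 0.02 and the 4 of *Rian* from -3.17 to -0.21. The paternally expressed *Dlk1* of the same domain had levels of 5.33 and 5.28.

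The cell cycle inhibitor gene *Cdkn1c* had levels of 5.12 in ESCs, 7.59 at day 2, 8.33 at day 4 and 6.93 with PRDM14, a difference of -1.39. *Phlda2*, a placental growth inhibitor gene, had levels of 7.07, 9.66, 10.41 and 9.36, and *Igf2* had levels of 5.90, 5.68, 7.22 and 6.37. *Sgce* (-1.05), *Ascl2* (-0.90), *Ndn* (-0.60) and *Grb10* (-0.59) were the other lower members. In each of these genes EpiLCs (d4) had the highest level of the 4 arrays. *Plagl1*, a zinc finger gene, was the exception, with levels of 9.95, 6.32, 6.60 and 7.44. *Snrpn* (-0.23), *Impact* (-0.37) and *Peg3* (-0.51) were within 1.5-fold.

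Genes of cell junctions and epithelia were lower in 12 and higher in 2 of 41, with a median of -0.23. With EpiLCs (d2) as the reference, 4 were lower and 3 higher, with a median of -0.06. *Krt8*, the gene of a keratin of simple epithelia, had levels of 7.76 in ESCs, 7.49 at day 2, 9.57 at day 4 and 8.19 with PRDM14, a difference of -1.38. Its partner and neighbour *Krt18* had levels of 6.82, 7.53, 8.93 and 7.72, and *Krt19* had levels of 4.98, 5.22, 6.58 and 5.40. The claudin gene *Cldn4* had levels of 6.50, 7.25, 8.47 and 6.73, a difference of -1.75, and *Cldn7* had levels of 5.70, 6.54, 7.74 and 6.33, a difference of -1.42. In these genes EpiLCs (d4) stood above the other arrays. The desmoplakin gene *Dsp* (-1.13), the membrane protease gene *Prss8* (-0.96), *Cldn6* (-0.70), the splicing regulator gene *Esrp1* (-0.63) and *Marveld2* (-0.61) were lower too, beside *Gja1* and *Epcam*. *Jam2* and the P-cadherin gene *Cdh3* (0.90) were higher.

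The same keratins made up most of the calls in the trophoblast list, where 4 of 23 genes were lower, with *Ascl2* as the fourth. The defining factor *Cdx2* had a level of 5.80 on both arrays, the 6 trophoblast markers summed to 37.7 with PRDM14 and 39.4 at day 4 with *Krt8* alone past 1.5-fold, and the part of trophoblast cells in these differences was not tested. Other lineages moved little. None of 24 genes of primitive streak and mesoderm, 23 of endoderm or 16 of fibroblasts passed, though *Foxa1* and *Sparc* came close with 0.58 each. Of 19 neural genes, the neuronal tubulin gene *Tubb3* (1.31) and *Stmn2* (0.99) were higher and the Notch ligand gene *Dll1* (-0.70) was lower, while *Sox1* (0.11), *Pax6* (-0.19) and *Nes* (0.19) were within 1.5-fold. These calls are 10.5% higher and 5.26% lower, against 1.88% and 2.15% of all genes. *Tubb3* was also high in ESCs, with levels of 8.05 there, 5.94 in EpiLCs (d2), 6.94 in EpiLCs (d4) and 8.25 with PRDM14.

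In the list of actomyosin and actin-binding genes, 5 of 39 were higher (12.8%) and 2 lower (5.13%), against 1.88% and 2.15% of all genes. The membrane-binding annexin gene *Anxa2* had levels of 7.26 in ESCs, 7.53 at day 2, 8.10 at day 4 and 9.18 with PRDM14, a difference of 1.09. *Cnn2* (0.73), *S100a6* (0.67), *Anxa1* (0.62) and *S100a10* (0.62) were the others, and the actin-bundling gene *Fscn1* (-0.83) and *Myh10* (-0.61) were lower. Of 26 genes of collagens, laminins and integrins, the basement membrane gene *Nid1* (1.23) was higher and the integrin gene *Itga6* (-0.68) lower. Each is 3.85% of the list, and the other probe set of *Nid1* differed by 0.01. Of 44 guidance genes, 3 were lower (6.82%) and none higher, against 2.15% and 1.88% of all genes. The lower ones were the ephrin gene *Efnb2* (-1.33), *Sema4c* (-1.19) and *Epha1* (-0.89). The other probe sets of *Efnb2* ran from -1.24 to 0.02 and those of *Epha1* from -0.14 to 0.08.

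Lower genes outnumbered higher ones in the lists of glycolysis and of cholesterol synthesis. Of 30 genes of glycolysis and hypoxia, 5 were lower and 1 higher, with a median of -0.13. With EpiLCs (d2) as the reference, 3 were lower and 4 higher, with a median of 0.00. *Slc2a1*, the gene of the glucose transporter GLUT1, had levels of 8.91 in ESCs, 9.57 at day 2, 11.11 at day 4 and 9.89 with PRDM14, a difference of -1.22. *Pdk1*, a kinase gene that inhibits pyruvate dehydrogenase, had levels of 10.54, 10.82, 10.78 and 9.83. The first of these peaked in EpiLCs (d4), whereas the second was level elsewhere and low with PRDM14. *Egln3* (-0.92), *Tpi1* (-0.67) and *Hk2* (-0.59) were also lower and *Pfkp* (0.88) was higher, with 0.01 at its other probe set. None of 39 respiratory chain genes passed, and their median was 0.10 with a range from -0.14 to 0.30. Of 26 genes of cholesterol and fatty acid synthesis, 5 were lower and none higher, with a median of -0.27. They were *Lss* (-0.92), *Scd1* (-0.82), *Cyp51* (-0.81), *Sc5d* (-0.78) and the feedback gene *Insig1* (-0.62). Of 33 genes of amino acid transport and the ATF4 response, *Slc6a15* and the cystathionine lyase gene *Cth* (1.00) were higher and *Slc38a2* (-0.64) lower. These are 6.06% and 3.03% of that list, against 1.88% and 2.15% of all genes.

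Most genes of proliferation were within 1.5-fold. Of 40 genes of G1-S and DNA replication, *Ccne2* (-0.84), *E2f3* (-0.76) and *E2f7* (-0.61) were lower, which is 7.5%, against 2.15% of all genes. None of 28 genes of G2-M passed, and the median was -0.02 in both lists. Of 23 p53 targets, the stress gene *Sesn1* (1.15), *Perp* (0.70) and *Plk2* (0.61) were higher and the proapoptotic *Pmaip1* (-0.75) was lower, while *Cdkn1a* (0.19) and *Mdm2* (0.18) were within 1.5-fold. Of 40 genes of chromatin remodelling, the helicase genes *Chd9* (-1.43) and *Chd7* (-0.91) and the genome organizer gene *Satb1* (-1.30) were lower and *Morc1*, a transposon-silencing gene of germ cells, was higher (0.80). Of 27 interferon response genes, *Ifitm3* and *Ifitm2* (0.73) were higher and *Gbp2* (-0.63) was lower. The calls are 2.5% higher and 7.5% lower in the chromatin list, and 7.41% higher and 3.70% lower in the interferon list. None of 4 *Rhox* genes and none of 12 housekeeping genes passed, and the median of the latter was -0.02.

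**Figure D4:**
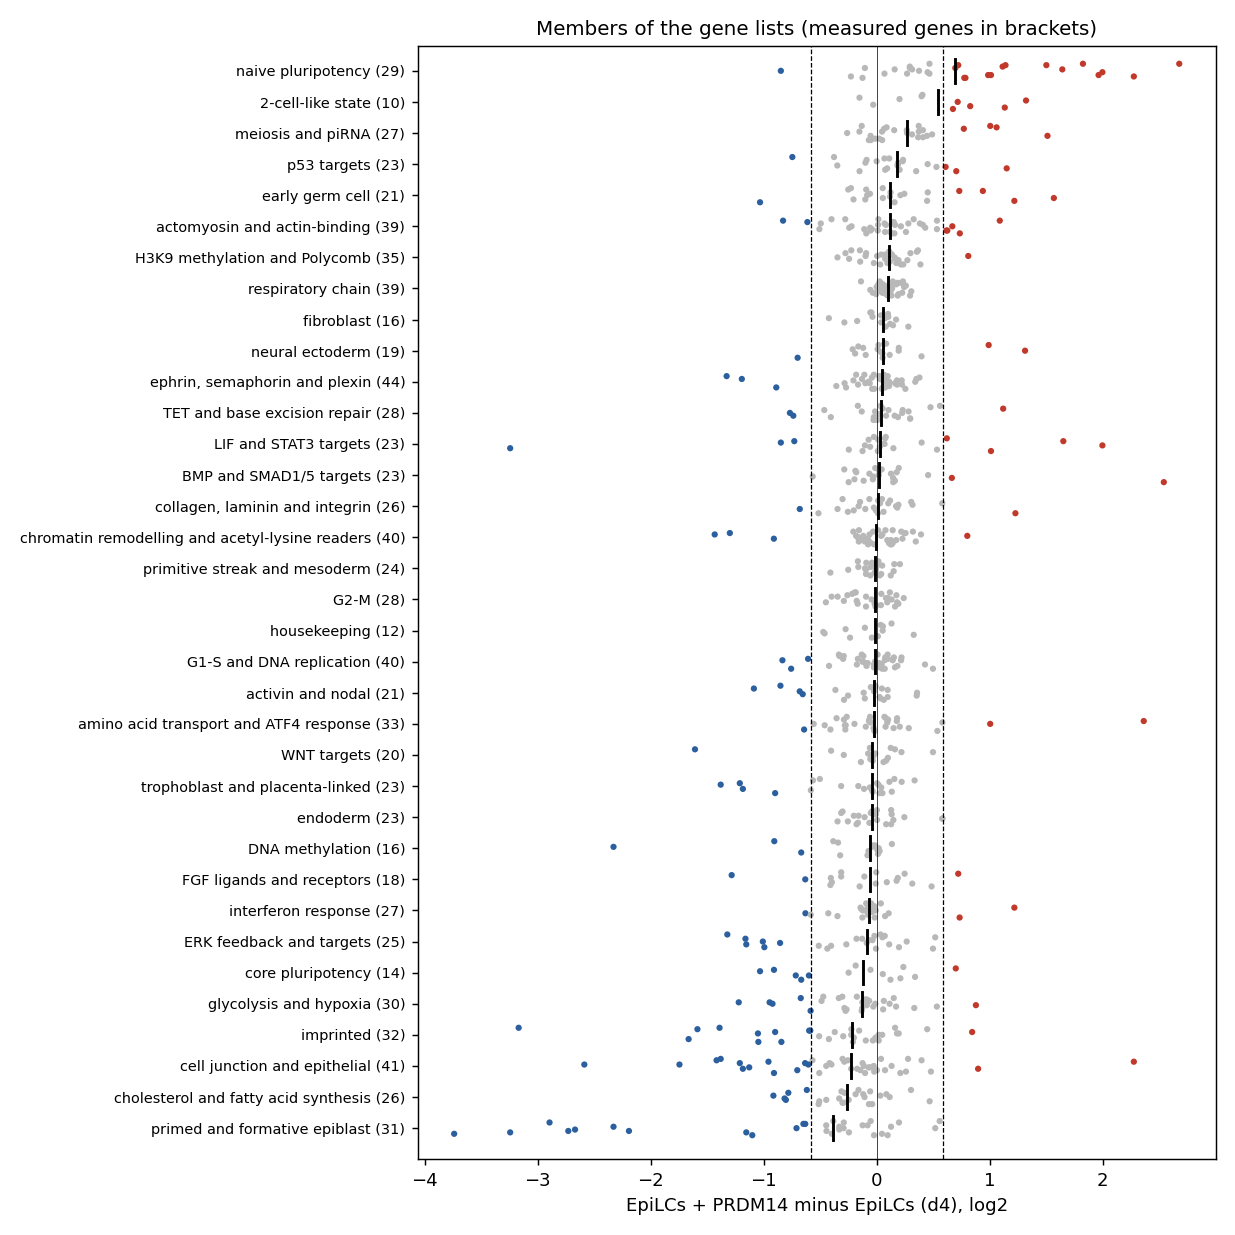
Each point is a measured gene of a list, placed by its log2 difference between EpiLCs + PRDM14 and EpiLCs (d4); black bars are list medians, dashed lines mark 1.5-fold and colours mark higher (red) and lower (blue) genes. The lists run from naive pluripotency at a median of 0.69 to primed and formative epiblast at -0.39, and no gene of the G2-M list passes 1.5-fold.

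Arrays that the comparison did not use show where its genes stood elsewhere. ESCs minus EpiLCs (d2) shares no array with it, but all these arrays were scaled by the same method. Of the 321 higher genes, 126 (39.3%) were also higher in ESCs, where 2.7% of all genes were, and these 126 were 27.3% of the 461 genes higher in ESCs. Of the 367 lower genes, 151 (41.1%) were also lower in ESCs, against 2.32% of all genes, and they were 38.0% of the 397 lower there. Over the 17097 genes, the differences of these pairs had r = 0.46 and a rank correlation of 0.25, given as a description.

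Against the direction of ESCs went 13 higher genes that were lower in ESCs (4.05%, against 2.32% of all genes) and 11 lower genes that were higher there (3.0%, against 2.7% of all genes). *Dppa3* is one of the first, with the levels given above. *Twf2*, an actin-binding twinfilin gene, had levels of 7.01 in ESCs, 8.49 at day 2, 7.59 at day 4 and 8.30 with PRDM14, so it resembled EpiLCs (d2). *Bnc2* (0.75) and the metallothionein gene *Mt4* (0.91) had courses away from ESCs too. Of the second, the lipoprotein lipase gene *Lpl* had a level of 9.57 in ESCs and a difference of -0.76, and the scavenger collectin gene *Colec12* had levels of 6.47, 5.30, 6.25 and 4.79. Both were lowest with PRDM14 of the 4 arrays although they were highest in ESCs. *Meis2* (-0.83) and the cathepsin gene *Ctsc* (-0.62) followed the same order.

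The pair labelled *Tet1*/*Tet2* KD, EpiLCs + PRDM14 minus EpiLCs (d2), shares no array with the comparison either. It differs from it in the knockdown and in its day 2 reference. For some genes, EpiLCs + PRDM14 minus EpiLCs (d2) of the scramble arrays, which has the same reference day, is given beside it. Of the 321 higher genes, 96 (29.9%) were higher in that pair, against 2.13% of all genes. In the opposite direction, 33 (10.3%) were lower there, against 2.52% of all genes. Of the 367 lower genes, 106 (28.9%) were lower there, against 2.52% of all genes, and 34 (9.26%) were higher, against 2.13%. As shares of that pair's own calls, the 96 and the 106 are 26.4% of 364 and 24.7% of 430. Over all genes r was 0.26 and the rank correlation 0.13. *Klf4* and *Id3* differed by 2.75 and 2.41 in that pair, and *Sox4*, *Pou3f1* and *Cpe* by -2.66, -2.64 and -2.58. The germ cell and 2-cell-like genes *Tfap2c* (2.90), *Zfp352* (2.24), *Dppa3* (2.07) and *Tcstv3* (1.98) differed more there than in the comparison with EpiLCs (d4). Against EpiLCs (d2), the scramble array with PRDM14 differed by 1.99, 1.49, 1.91 and 1.32 for these genes in the same order. Other genes went the opposite way, with *Dazl* at -1.07, *Lifr* at -0.77 and *Sesn1* at -0.78 on the one side. On the other were *Krt18* at 1.35, *Phlda2* at 1.49 and *Cdkn1c* at 0.91. Against EpiLCs (d2), the scramble array with PRDM14 differed by 0.24 for *Dazl*, 0.65 for *Lifr*, 0.22 for *Sesn1*, 0.19 for *Krt18* and -0.66 for *Cdkn1c*. The cause was not tested.

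**Figure D5:**
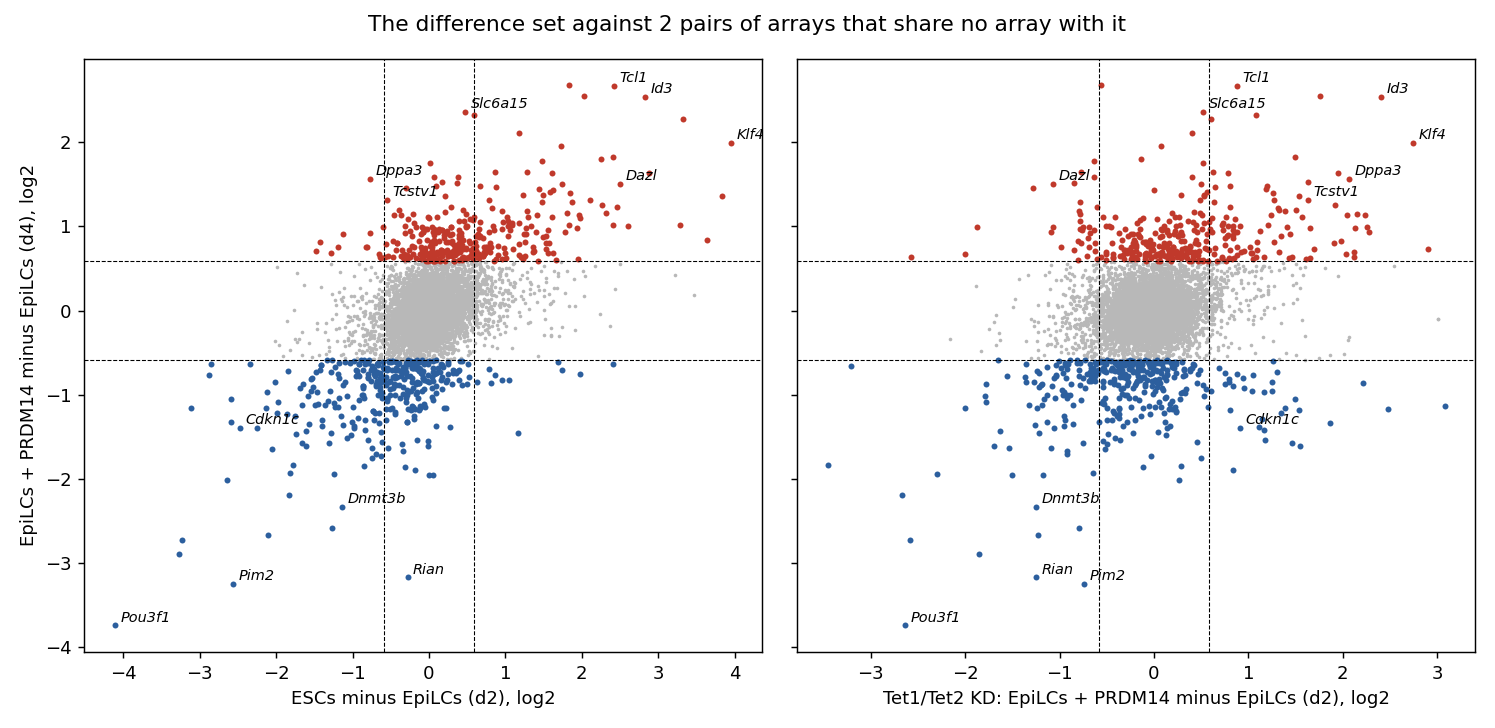
Each point is a gene, with its log2 difference between EpiLCs + PRDM14 and EpiLCs (d4) on the y axis against ESCs minus EpiLCs (d2) (left) and the pair labelled *Tet1*/*Tet2* KD (right) on the x axis; dashed lines mark 1.5-fold and colours mark higher (red) and lower (blue) genes. *Klf4*, *Tcl1* and *Id3* lie at the upper right and *Pou3f1* at the lower left of both panels, while *Dppa3* and *Tcstv1* lie left of 0 in the left panel and right of 0 in the right one.

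Differences from EpiLCs (d2) share an array with the comparison, so for the called genes as groups only levels are set side by side. The median level of the 321 higher genes was 7.65 in ESCs, 6.98 at day 2, 6.82 at day 4 and 7.80 with PRDM14. That of the 367 lower genes was 6.68, 7.22, 7.69 and 6.71. The genes were called from their levels at day 4 and with PRDM14, so the medians of those arrays follow from the rule and are a description.

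Some called genes lay next to each other in the RefSeq order of measured genes, with no uncalled gene between them. Beside the rows on chromosomes 13 and 12, the chromatin gene *Yaf2* (-1.17), the splicing gene *Zcrb1* (-1.14), *Pphln1* (-1.15) and the planar polarity gene *Prickle1* (-1.03) formed a row of 4 lower genes on chromosome 15. Pairs of related genes were *Krt8* with *Krt18*, *Lefty1* with *Lefty2*, *Dppa2* with *Dppa4* and *Armcx2* with *Armcx3*, and *Dppa3* lay beside *Nanog*.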

How the data were processed

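The members of the comparison and the gene lists were chosen with earlier results of these data known. The authors processed total RNA by GeneChip 3′ IVT Express labelling, hybridized it to mouse MG-430 PM array strips on the GeneAtlas system and deposited log2 values made by RMA. Per the labels, the software was Affymetrix Expression Console, version not given in the sources used here. Median signals were 5.07 in the KD columns and 5.28 to 5.29 in the others, so KD values were used only as differences within their pair. Of 45141 probe sets, 104 controls, 551 with several symbols and 15588 without a symbol in the platform annotation were left out. No filter on dim probe sets was applied. Differences were computed with Python 3.11.15, pandas 2.3.3 and numpy 2.4.6 and called at 1.5-fold, the threshold of the study. With 1 array per condition no test, interval or p-value was computed, and precision is limited by the number of arrays.

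Of 988 symbols in 36 lists, 858 were measured, 70 of them in several lists. Named genes were the 15 largest increases and decreases, the 4 members of each list with the largest absolute difference, the manipulated genes and the cell type markers. Other called members, neighbours, genes opposite to ESCs and genes with an octamer were named after their values were seen. Alternatives were a 2-fold threshold, quantile normalization, a median shift, a filter on dim probe sets, other rules from probe sets to genes, and EpiLCs (d2) as the reference.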

Additional observations from a re-analysis of the deposited data

How the results depend on the processing

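Each condition has 1 array, so no value has a replicate check, and dim genes rarely pass 1.5-fold. No paired analysis was possible because each condition has 1 array and no test was made. The 321 higher and 367 lower genes became 89 and 122 at 2-fold and 335 and 359 after quantile normalization of all arrays. They became 318 and 371 after a median shift and 310 and 348 with a filter on dim probe sets. The mean over probe sets gave 255 and 264, and the probe set that differed most gave 379 and 448. Without probe sets whose names end in x_at, s_at or a_at, the counts were 274 and 313. With EpiLCs (d2) as the reference they were 466 and 326. At 2-fold in both pairs, 52.8% of higher genes were also higher in ESCs and 39.3% of lower genes also lower there. In the KD pair these shares were 28.1% and 23.0%. The shares of all genes past 2-fold in those pairs are not given here, so these values have no reference beside them. Of 110 called named genes, the direction and the call held for all 110 under quantile normalization and the median shift, for 96 with the mean over probe sets, and for 80 with EpiLCs (d2) as the reference. With that reference the sign turned for *Ascl2* (0.12), *Fgfbp1* (0.52), *Hormad1* (-0.31), *Krt18* (0.19), *Krt19* (0.18), *Krt8* (0.70), *Morc1* (-0.19) and *Slc2a1* (0.32). Of the lists, medians moved with that reference from 0.69 to 0.37 for naive pluripotency, from 0.54 to 0.99 for the 2-cell-like state, from -0.27 to -0.44 for cholesterol and fatty acid synthesis, from -0.02 to -0.28 for G1-S and DNA replication (8 genes lower), and from 0.12 to 0.30 for actomyosin genes (14 higher and 1 lower), beside the lists given above for that reference. The mean over probe sets brought within 1.5-fold *E2f3*, *Egln3*, *Epha1*, *Etv1*, *Fgf4*, *Fgf5*, *Foxp1*, *Fscn1*, *Gbp2*, *Pfkp*, *Sc5d*, *Scd1*, *Slc38a2* and *Zbtb33*. The cause was not tested.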

Other observations

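Some gene groups were looked at after their values were seen, so their counts are descriptions. Over all genes, 1.88% were higher and 2.15% lower. Of 30 measured targets and regulators of NRF2, the factor of the antioxidant response, 8 were lower and none higher with PRDM14 than in EpiLCs (d4), with a median difference of -0.21. The carbonyl reductase gene *Cbr3* had levels of 8.23 in ESCs, 10.01 at day 2, 9.12 at day 4 and 7.28 with PRDM14. *Hmox1*, the heme oxygenase gene, had levels of 8.07, 9.22, 9.20 and 7.95. Both stood lowest with PRDM14. *Gpx2* (-1.13), *Txnrd1*, with levels of 9.39 against 10.38, and the glutathione synthesis genes *Gclc* (-0.92) and *Gclm* (-0.71) were also lower. The others were *Nfe2l2* (-0.84), which encodes NRF2 itself, and *Abcc4* (-0.65). The other probe set of *Nfe2l2* differed by 0.07. Within 1.5-fold, *Nqo1* had levels of 6.86 and 7.35, and *Gsta4* (0.43) and *Taldo1* (0.21) had the largest positive differences.

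Of 32 measured autophagy genes, 4 were higher and none lower, against 1.88% and 2.15% of all genes, with a median difference of -0.01. *Calcoco2*, which encodes the receptor NDP52, had levels of 10.84 in ESCs, 7.01 at day 2, 8.74 at day 4 and 10.10 with PRDM14. *Ccpg1*, a gene of endoplasmic reticulum turnover, had levels of 7.94, 6.45, 6.32 and 7.69. The kinase gene *Ulk1* (1.19) and *Gabarapl2* (0.95) were the others, and each of these genes was nearer to its ESC level with PRDM14 than in EpiLCs (d4).

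X-linked genes held many of the lower calls. Of 597 measured, 34 (5.70%) were lower and 9 (1.51%) higher, against 2.15% and 1.88% of all genes. The 34 had a median difference of -1.13, where the 333 lower genes of other chromosomes had -0.82. With EpiLCs (d2) as the reference, these medians were -0.05 and -0.50. EpiLCs (d4) minus EpiLCs (d2) had medians of 0.78 in the 34 and 0.35 in the 333. Beside *Pim2* they include the chromatin remodeller gene *Smarca1*, with levels of 4.64 in ESCs, 4.95 at day 2, 6.75 at day 4 and 4.90 with PRDM14, and *Hmgn5*, with levels of 5.96, 7.26, 9.44 and 7.87. *Rlim*, a ubiquitin ligase gene known for its part in X inactivation, had levels of 8.81, 10.10, 10.58 and 9.12. EpiLCs (d4) had the highest level of the 4 arrays in each of these genes.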
